A study of Gallus gallus with 6 samples.

Results

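The miR-15 and miR-16 family was followed here in small RNA of the chicken testis. Its members were taken by name from the miRNA table, whatever species a name refers to: miR-15 and miR-16 with or without a letter a to c, miR-195 and miR-497, on either arm, with each distinct sequence counted once. This gave 13 of 1151 distinct sequences. Of these, 7 carried a chicken name (gga-miR-15b, gga-miR-15c, gga-miR-16 or gga-miR-16c, with variants and arms) and 6 were named for another species, namely platypus (oan), zebra finch (tgu), goat (chi) or cow (bta). By name 6 came from the 5p arm of the precursor, 6 from the 3p arm, and 1, bta-miR-497, had no arm in its name. No member was named miR-195.

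Small RNA had been sequenced from left testis tissue of Cobb500 breeder cocks, a broiler parent line, at 40 weeks of age. The tissue taken is described as free of blood contamination. The A group (3 libraries) was fed a corn and soybean diet to which Astragalus polysaccharide (APS) was added at 10 g per kg, and the C group (3 libraries) the same diet without APS. The comparison asks whether the testicular miRNA profile differs with this supplement. The sources differ on the number of birds kept, the RNA extraction and the sequencer, and no label says which pen each bird came from, so p-values measure only the spread between these testes. In whole tissue, fewer cells of a type and less RNA per cell cannot be told apart.

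A miRNA is cut from a hairpin precursor, and of its 2 arms usually 1 is loaded into an Argonaute protein while the other is degraded. Bases 2 to 8 of the loaded strand, the seed, pair with target mRNAs and lower their translation and stability. In mammals, miR-15 and miR-16 are known to repress cell cycle and survival genes such as CCND1, CCNE1 and BCL2, and they are made in pairs from short clusters. In the chicken annotation (RefSeq, assembly bGalGal1.mat.broiler.GRCg7b) MIR15A and MIR16-1 are neighbours on chromosome 1, outside protein-coding genes. MIR15B and MIR16-2 are neighbours on chromosome 9 within SMC4, which encodes a condensin subunit, and MIR15C and MIR16C are neighbours on chromosome 4 within LOC101749419.

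The 5p sequences that make up nearly all of the family's counts are shown first, as they stand in the deposited table, 5′ to 3′ and in DNA letters, with the seed in capitals.
gga-miR-16-5p: tAGCAGCAcgtaaatattggtg
gga-miR-15b-5p: tAGCAGCAcatcatggtttgc
oan-miR-15a-5p: tAGCAGCAcataatggtttgtgt
All 3 shared the seed and the base before and after it. Counted from 1 at the 5′ end of gga-miR-15b-5p, oan-miR-15a-5p differed by C12A and C21T and ended 2 bases later. A pair of rare 5p sequences stood 1 substitution away from an abundant one, and they are shown because the largest difference between the diets lay in the first.
chi-miR-16b-5p: tAGCAGCAcgtaaatattgggga
gga-miR-15b-5p variant: tAGCAGCAtatcatggtttgc
Against gga-miR-16-5p, chi-miR-16b-5p differed by T21G and ended 1 base later. The variant differed from gga-miR-15b-5p by C9T. These ends are those of the entries, whose names are shortened here. By their full names, both gga-miR-15b-5p entries end 1 base before their reference strand. oan-miR-15a-5p ends 2 bases and chi-miR-16b-5p 1 base after theirs.

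The 3p sequences come from the opposite arm of the hairpin. They are shown because their seeds are unlike that of the 5p arm.
tgu-miR-16b-3p: cCCAATATtattgtgctgctt
gga-miR-16-1-3p: cCAGTATTaactgtgctgctga
oan-miR-15a-3p: cAGGCCATattgtgctgcctct
gga-miR-15b-3p: cGAATCATtatttgctgctttt
gga-miR-15c-3p: cAGACCATtctgggctgcctcat
By its full name, gga-miR-15b-3p starts 1 base before its reference strand, so the seed marked here is shifted by 1 base. Both it and oan-miR-15a-3p are named as having A replaced by T at base 22. chi-miR-16b-3p, not shown, was tgu-miR-16b-3p with 2 more bases at the 3′ end. In all, 7 of the 13 members had the 5p seed, among 9 of all 1151 sequences (0.782%), and these members held 99.39% of the family's counts.

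The libraries held 497286 to 743187 miRNA counts. A list of 5 gonad and male germ cell miRNAs, miR-202 among them, was detected in full in every library. The smooth muscle and vessel wall list, miR-143 and miR-145, stood at 64517 to 97803 CPM before TMM in A testes and 70078 to 96476 in C testes. Endothelial miR-126 stood at 4100 to 13693 CPM before TMM in A testes and 6224 to 15716 in C testes. Blood cell miRNAs were also found. Of 5 white cell miRNAs, 4 to 5 were above 0 per library, at 30771.5 to 37689 CPM before TMM in A testes and 28013 to 32850 in C testes, though miR-223 had at most 2 counts. Of that sum, miR-142 held only 1024 to 1155 CPM in A testes and 617 to 1707 in C testes. Most of it thus came from the rest of the list, miR-146, miR-150 and miR-155. The red cell list stood at 139.1 to 265.3 CPM before TMM in A testes and 110.3 to 317.7 in C testes, nearly all of it miR-144, as miR-451 had 0 to 4 counts. A pair of libraries stood apart by sequences named for other species, of which C replicate 2 held 283 and A replicate 3 held 228, against 170 to 192 elsewhere. Of 42 miRNAs known from mammalian clusters, 30 were found in C replicate 2, with 375 counts in all, and 22 counts stood in A replicate 3, against at most 3 in each other library. Their part in the results was not tested, and values without both are given beside the results or with the alternatives.

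The family was found in every library. Its counts were 1.19%, 0.965% and 1.20% of all miRNA counts in the A libraries, against 1.34%, 0.996% and 1.25% in the C libraries, and the groups overlapped. Over the 6 libraries 42191.5 counts were assigned to it, and 3 members, gga-miR-16-5p, gga-miR-15b-5p and oan-miR-15a-5p, held 98.8% of them. The other 10 had fewer than 150 counts each over all libraries.

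Levels below are in CPM (counts at a common library size), scaled by trimmed mean of M values (TMM), which sets the bulk of the sequences level between libraries. The strand gga-miR-16-5p, identical from both of its loci and so not separable between them, had 7747, 7170 and 7238 CPM in A testes, against 8190, 7440 and 8067 CPM in C testes. It ranked 28th of all sequences. Its groups overlapped.
For gga-miR-15b-5p the A testes had 2431, 2413 and 3090 CPM and the C testes 2796, 2970 and 2912 CPM. A replicate 3 was above all C testes and the other A testes below them.
The third, oan-miR-15a-5p, had 1141, 959.5 and 856.9 CPM in A testes, against 869.9, 893.2 and 1075 CPM in C testes, with full overlap. This order, miR-16 above miR-15b above miR-15a, held in 6 of 6 libraries without overlap. The mean of gga-miR-16-5p was 2.76 times that of gga-miR-15b-5p, which was 2.87 times that of oan-miR-15a-5p. This order is one of read counts. Below it came a gap of 27.8 times, and no 2 neighbours among the remaining members were separated by more than their spread.

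**Figure D1:**
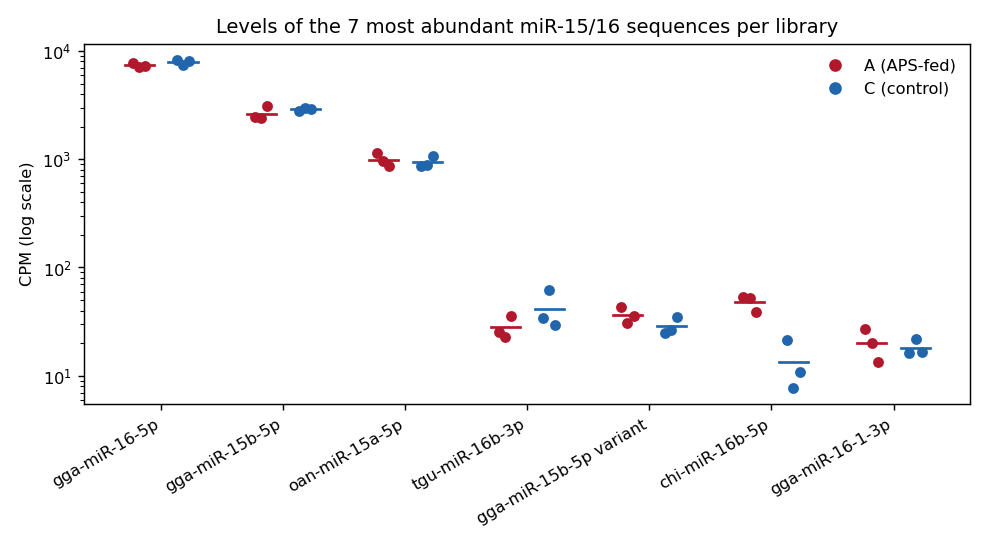
CPM on a log scale of the 7 most abundant sequences of the family, with 1 point per library, A (APS-fed) left of C (control) and bars at the group means. The top 3 lie within 857 to 8190 CPM in every library, and chi-miR-16b-5p is the sequence whose 3 A points, 38.7 to 53.6 CPM, all lie above its 3 C points, 7.73 to 21.5 CPM.

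No member passed the test between the diets. The edgeR quasi-likelihood test was run on the 774 sequences whose authors' normalized values averaged 1 or more in A or in C, and p-values were adjusted over all of them by Benjamini-Hochberg. Of the 13 members, 10 passed this filter, each of them in both groups. An adjusted p under 0.05 was reached by 0 of the 10 members and by 0 of the 774 sequences (0.0%). An unadjusted p under 0.05 was found for 1 of the 10 members and for 46 of the 774 sequences (5.94%), 19 of them higher (2.45%) and 27 lower (3.49%) in A testes. DESeq2's Wald test gave 0 sequences by adjusted p and 23 by unadjusted p. The log2 fold change of A over C was above 0 for 6 of the 10 members and below 0 for 4, with a median of 0.05, against a median of −0.08 over all 774 sequences, of which 45.1% were above 0.

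For the 3 abundant members the differences were small against their errors. gga-miR-16-5p averaged 7385 ± 316 CPM in A testes and 7899 ± 402 CPM in C testes (SD, n = 3 each), a log2 fold change of −0.10 ± 0.13 (SE, edgeR adjusted p = 0.853). On the scale of the authors' normalized values its groups did not overlap, with 4464 ± 175 in A testes and 4862 ± 92.4 in C testes. On that scale 2 of the 10 members (this one and chi-miR-16b-5p) did not overlap. Of all 774 sequences, 100 (12.9%) did not overlap on that scale and 59 (7.62%) were lower in A without overlap. gga-miR-15b-5p averaged 2645 ± 386 CPM in A testes and 2893 ± 88.7 CPM in C testes, a log2 fold change of −0.13 ± 0.16 (edgeR adjusted p = 0.840), which was −0.24 without C replicate 2 and A replicate 3 and, over each library left out, −0.26 to −0.07. oan-miR-15a-5p averaged 986 ± 143.8 CPM in A testes and 946 ± 112 CPM in C testes, a log2 fold change of 0.06 ± 0.18 (edgeR adjusted p = 0.939). Without A replicate 1 this last value was −0.05.

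**Figure D2:**
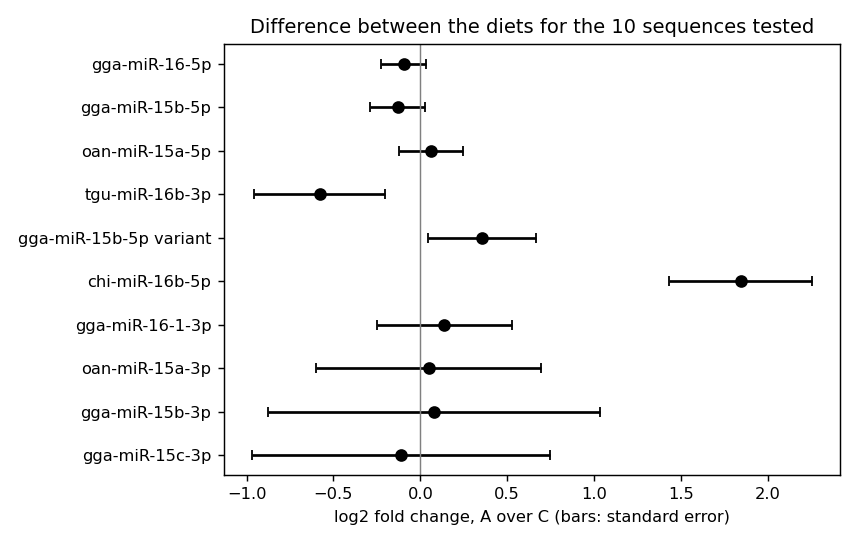
Log2 fold change of A over C for the 10 members tested, from the most abundant at the top to the rarest at the bottom, with bars of 1 standard error from edgeR. The 3 abundant members lie between −0.13 and 0.06, chi-miR-16b-5p at 1.84 ± 0.41, and the 3 rarest members have standard errors of 0.65 to 0.96.

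The largest difference was that of chi-miR-16b-5p, the sequence 1 substitution away from gga-miR-16-5p. It had 32, 34 and 26 counts in A testes, against 12, 5 and 6 counts in C testes. Every A value lay above every C value. Groups did not overlap in 101 of the 774 sequences (13.0%), 46 of them higher (5.94%) and 55 lower (7.11%) in A testes, and among the 10 members tested it was the only one without overlap in CPM. It averaged 48.2 ± 8.24 CPM in A testes and 13.4 ± 7.20 CPM in C testes, a log2 fold change of 1.84 ± 0.41. Its unadjusted p of 0.00138 ranked 1 among the 774 sequences, and its edgeR adjusted p was 0.559, so it did not pass. It was positive in 16 of 16 alternative settings, at 1.54 to 2.36, with an unadjusted p of at most 0.0101. The adjusted p was 0.00719 by edgeR without a filter on low values, where 12 sequences passed (1.07%), and 0.0904 to 0.863 under the others, which include fits by DESeq2 and limma. Without C replicate 2 and A replicate 3 the log2 fold change was 1.69.

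Counts of this rare sequence can be set against those of its abundant neighbour within the same library, which needs no scaling between libraries. For every 1000 counts of gga-miR-16-5p there were 6.92, 7.28 and 5.34 of chi-miR-16b-5p in A testes, against 2.62, 1.04 and 1.36 in C testes. The groups did not overlap, and the exact permutation test gave p = 0.1, the smallest value that 3 against 3 allows (two-sided). This ratio uses the counts already given and is no separate evidence.
The other rare 5p sequence, the variant of gga-miR-15b-5p, had 17.7, 12.8 and 11.8 per 1000 counts of gga-miR-15b-5p in A testes, against 9.18, 8.98 and 11.8 in C testes. Its groups overlapped (two-sided exact permutation p = 0.2). The counts of this variant were fractional, so they rest on divided reads. In CPM it averaged 36.7 ± 6.48 in A testes and 28.6 ± 5.21 in C testes, with a log2 fold change of 0.35. That value was 0.22 without A replicate 1 and at most 0.51 with another library left out.

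**Figure D3:**
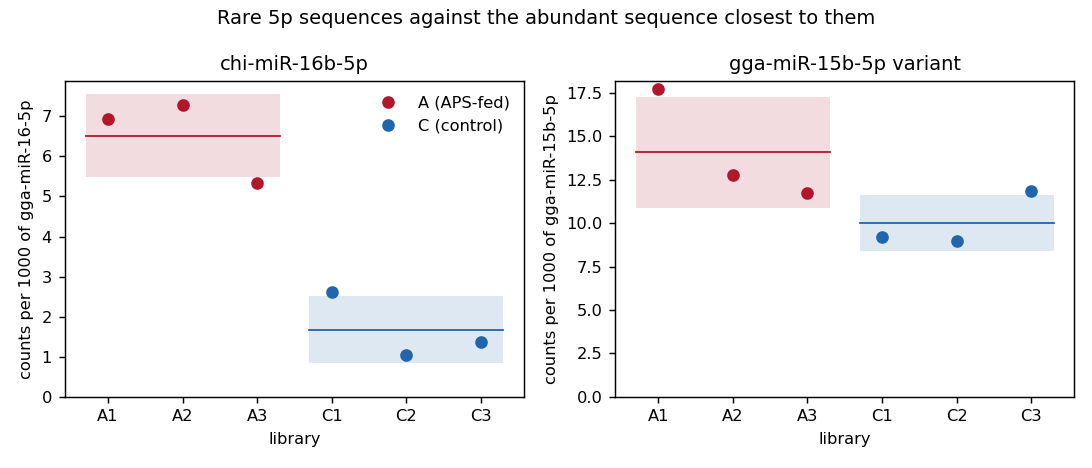
Counts of chi-miR-16b-5p per 1000 counts of gga-miR-16-5p (left) and of the gga-miR-15b-5p variant per 1000 counts of gga-miR-15b-5p (right), with 1 point per library, A left of C. Lines and bands are group means and 1 SD, and the left panel shows 5.34 to 7.28 in A testes against 1.04 to 2.62 in C testes.

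The shares of the 3 abundant members in the family overlapped between the diets. gga-miR-16-5p made up 66.2% ± 1.98 of the family's counts in A testes and 66.6% ± 1.74 in C testes (SD, n = 3 each, two-sided exact permutation p = 0.8). gga-miR-15b-5p made up 23.7% ± 3.19 in A testes and 24.4% ± 1.36 in C testes (two-sided exact permutation p = 0.7). oan-miR-15a-5p made up 8.83% ± 1.19 in A testes and 7.97% ± 0.795 in C testes (two-sided exact permutation p = 0.4). In a single library the counting error of such a share was small, as its 95% Wilson interval reached 0.594 to 1.13 percentage points to each side. The remaining 10 members together made up 1.41%, 1.30% and 1.28% in A testes, against 0.886%, 1.22% and 0.927% in C testes. These groups did not overlap, but chi-miR-16b-5p is part of that sum, with 32, 34 and 26 counts in A testes against 12, 5 and 6 in C testes. Without it the groups overlapped.

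**Figure D4:**
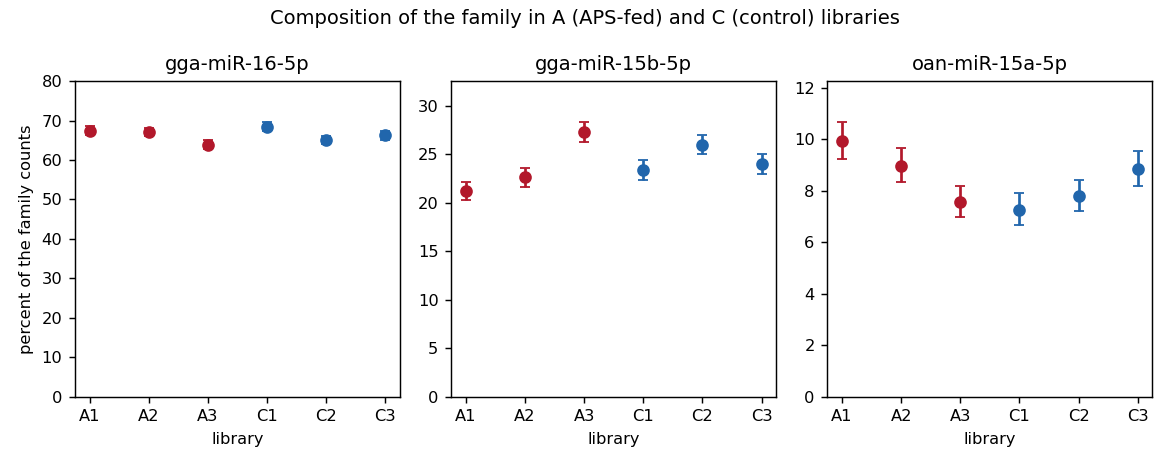
Percent of the family's counts held by each of the 3 abundant members in every library, A left of C, with 95% Wilson intervals that cover counting error only. gga-miR-16-5p holds 63.9% to 68.5% in all 6 libraries, and gga-miR-15b-5p and oan-miR-15a-5p spread over 21.2% to 27.3% and 7.27% to 9.94%.

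The balance of miR-15b and miR-15a, which by name belong to different clusters, varied among testes of the same diet. The miR-15a entry, named for platypus, was not placed on a chicken precursor here. Counts of gga-miR-15b-5p per count of oan-miR-15a-5p were 2.13, 2.52 and 3.61 in A testes, against 3.21, 3.33 and 2.71 in C testes (two-sided exact permutation p = 0.6). The lowest and the highest value both came from A testes. gga-miR-16-5p, which both clusters encode, stood at 2.17, 2.13 and 1.83 counts per count of miR-15a and miR-15b together in A testes, against 2.23, 1.93 and 2.02 in C testes. Here too the groups overlapped (two-sided exact permutation p = 1).
Summed over all members, the family had 11481, 10682 and 11329 CPM in A testes, against 11962, 11443 and 12166 CPM in C testes. The groups overlapped only between the highest A and the lowest C library, at a log2 ratio of −0.09 between the group means, which was −0.06 without A replicate 2 and at lowest −0.11 with another library left out. On the authors' scale the sums did not overlap, with 6747 ± 154 in A testes and 7302 ± 117 in C testes. No test was made of these sums.

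The 3p arms of miR-16, miR-15b and miR-15a were rare. The 3p share of gga-miR-16 (gga-miR-16-1-3p against gga-miR-16-5p) was 0.345%, 0.278% and 0.185% in A testes, against 0.196%, 0.290% and 0.203% in C testes (two-sided exact permutation p = 0.7). gga-miR-16-1-3p itself had 16, 13 and 9 counts in A testes, against 9, 14 and 9 in C testes. No 3p sequence was named for the second locus, MIR16-2, in this comparison, and the 5p counts of both loci cannot be told apart. The share thus sets the 3p strand named for 1 locus against the 5p counts of both. Whether the 3p sequences named miR-16b, given below, come from MIR16-2 cannot be told here.
For miR-15b the 3p share was 0.146% ± 0.0544 in A testes and 0.141% ± 0.0951 in C testes, on 15 counts of gga-miR-15b-3p in all (two-sided exact permutation p = 1). For miR-15a it was 0.875% ± 0.627 in A testes and 0.815% ± 0.351 in C testes, on 30 counts of oan-miR-15a-3p (two-sided exact permutation p = 1). Both differences were smaller than the SD of either group.

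For the name miR-16b the sequences named for the arms had like counts only in total, 131 of 3p and 115 of 5p. In A testes tgu-miR-16b-3p had 54 counts against 92 of chi-miR-16b-5p, and in C testes 75 against 23. These 2 sequences also carry different species in their names. Whether they come from 1 precursor cannot be told here, so the share below pairs them by name only. tgu-miR-16b-3p had 15, 15 and 24 counts in A testes, against 19, 40 and 16 counts in C testes. It averaged 28.0 ± 6.79 CPM in A testes and 41.7 ± 17.6 CPM in C testes, with overlapping groups and a log2 fold change of −0.58. That value was −0.19 without C replicate 2, the library with the most sequences named for other species.
With the 5p counts above, the 3p share of miR-16b came to 31.9%, 30.6% and 48.0% in A testes, against 61.3%, 89.4% and 72.7% in C testes. Its groups did not overlap, at 36.8% ± 9.68 in A testes and 74.5% ± 14.1 in C testes (two-sided exact permutation p = 0.1, the smallest possible). The 95% Wilson intervals of A replicate 3 (34.8% to 61.5%) and C replicate 1 (43.8% to 76.3%) overlapped. This share rests on 131 counts of the 3p and 115 of the 5p arm, and its difference carries the one of chi-miR-16b-5p already described. Set against gga-miR-16-5p, which had 27977 counts, the same 3p counts would be a far smaller share. Which 5p strand they belong with was not tested.

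**Figure D5:**
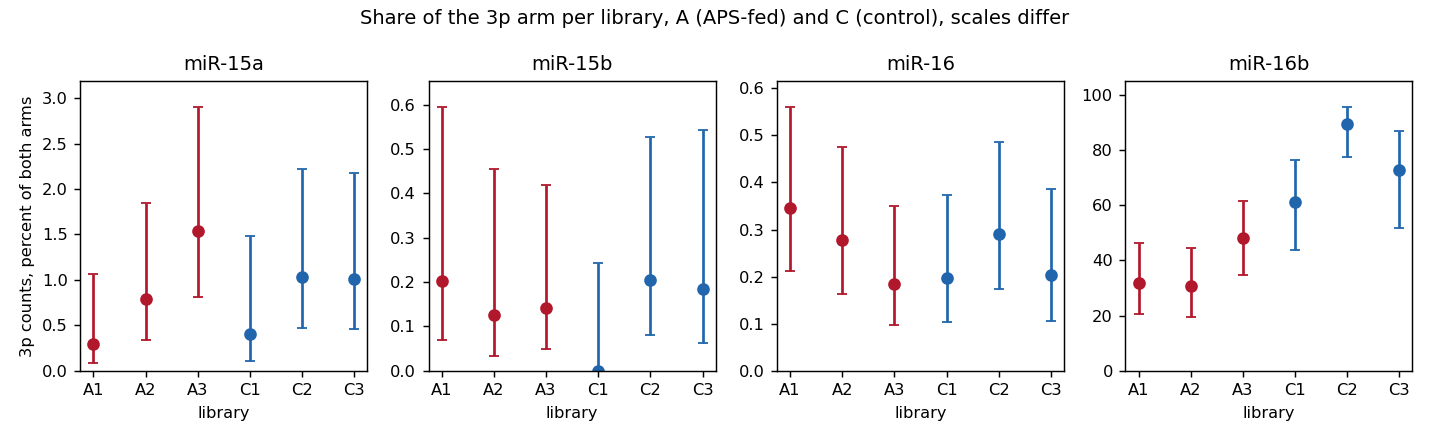
Counts of the 3p arm as a percent of both arms for miR-15a, miR-15b, miR-16 and miR-16b in every library, A left of C, with 95% Wilson intervals and a separate scale per panel. The 3p share lies under 1.6% for the first 3 names, and at 30.6% to 48.0% in A testes against 61.3% to 89.4% in C testes for miR-16b. The arms of miR-16b are paired by name only.

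The rarest members gave little to compare. oan-miR-15a-3p had 2, 5 and 9 counts in A testes, against 2, 6 and 6 in C testes, and gga-miR-15c-3p had 3, 2 and 1 counts in A testes, against 2, 2 and 2 in C testes. Both overlapped fully. The other 3 members were under the filter, namely bta-miR-497 with 1 count in each group, chi-miR-16b-3p with 0 counts in A testes and 2 in C testes, and gga-miR-16c-5p with under 1 count in every library. A count of 0 allows up to 3 counts, or 4.04 to 6.03 CPM before TMM in these libraries. Both sequences named for the cluster on chromosome 4 (gga-miR-15c-3p and gga-miR-16c-5p) were thus near the limit of detection. The entry of gga-miR-16c-5p has an uncalled first base and holds fractional counts only. A sequence alike but for its ends stands under the name ccr-miR-457b, with 1 count.

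Outside the family, miR-103 and miR-107 carry a seed shifted by 1 base and share part of the targets in mammals.
gga-miR-103-3p: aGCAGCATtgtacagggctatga
It averaged 6903 ± 390 CPM in A testes and 6324 ± 251 CPM in C testes and overlapped between the diets. gga-miR-107-3p averaged 938 ± 59.8 CPM in A testes and 916 ± 23.1 CPM in C testes. The sequences whose pattern over the 6 libraries was most like that of gga-miR-16-5p, by the root mean square difference of centred log2 CPM among 176 abundant sequences outside the family, were gga-let-7f-5p (0.065), a variant of gga-let-7a-5p (0.065) and aca-miR-18a-5p, named for an anole (0.077). The median over the 176 was 0.28, and gga-miR-15b-5p and oan-miR-15a-5p stood at 0.15 each. All values share the same libraries and scaling, and this likeness is a description. gga-miR-16-5p itself varied little, at 7170 to 8190 CPM, so any sequence of nearly constant level comes out close to it by this measure. The small distances therefore do not show that these sequences rise and fall together.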

How the data were processed

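Small RNA of 6 testes, 3 of the A group and 3 of the C group, was analysed from 1 table of miRNA values per library (1302 lines with values, every per-library column used). The authors processed the reads with ACGT101-miR, of which the submitters' processing notes name version 4.2: reads of 18 to 26 bases were kept and matched to miRBase 21 precursors with 1 mismatch allowed. For the genome, no build is given in the sources used here. The raw values, in the deposited table, are expected counts, because the authors divided a sequence with several loci between its lines. Members with only 1 line also held fractional counts, namely the gga-miR-15b-5p variant, gga-miR-15b-3p and gga-miR-16c-5p. How the reads of those were divided cannot be told here. The authors' normalized values, a signal, are the raw value times 1 constant per library. The deposited group means, fold changes (also as log2) and p-values are the authors' own comparison and were not used.

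Lines of one sequence were summed and rounded to whole counts. Those whose normalized values averaged 1 or more in A or in C (774 kept, 377 below) were tested with edgeR 4.0.16 in R 4.3.3 (TMM, quasi-likelihood, Benjamini-Hochberg over all 774). The biological coefficient of variation was 30.5%. The standard error of a log2 fold change is its absolute value over the square root of its F statistic. Shares and ratios were compared by two-sided exact permutation over libraries (scipy 1.17.1), and tables and figures were made with pandas 2.3.3, numpy 2.4.6, matplotlib 3.10.9 and Python 3.11.15. The code was tested on simulated data. No 2 libraries agreed within sampling noise.

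All members are named, and full statistics are given for those with a mean of at least 100 CPM or an unadjusted p under 0.05. The members and lists were chosen with earlier results of these data known. As alternatives the filter was dropped or raised to 10. Another setting scaled libraries within edgeR by relative log expression, the method behind DESeq2's size factors, in place of TMM. DESeq2 1.42.0 itself gave the Wald test. Further fits used limma 3.58.1 (voom after quantile normalization, or log2 of the normalized values plus 1). Sums per name or per base name and arm were also fitted. Sequences named for other species were left out (used in place of a class not named in the table). The last settings took the replicate number as a block and left out each library. Leaving out C replicate 2 with A replicate 3 was chosen after seeing the data. The reads, amplified by PCR, carry no molecular tags, so intervals and limits cover counting error only.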

Additional observations from a re-analysis of the deposited data

How the results depend on the processing

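Library totals limit what can be seen of the 10 rare members, and the precision of the others rests on 3 testes per diet. Without a filter on low values 12 sequences and 1 member (chi-miR-16b-5p, log2 fold change 1.84, edgeR adjusted p = 0.00719) passed the threshold, where 0 and 0 passed with it. The cause was not tested. Under all other settings both counts were 0, also when each library was left out (0 to 0). Sequences with an unadjusted p under 0.05 numbered 46, and 84 without a filter, 29 with a mean of at least 10, 23 by DESeq2's Wald test and 31 to 59 with 1 library left out. They split into 19 higher and 27 lower in A testes, but 23 and 61 without a filter, 17 and 37 with lines summed per name, 10 and 29 without A replicate 2, 38 and 20 after quantile normalization with limma-voom, 15 and 14 with a mean of at least 10, 12 and 11 by the Wald test, and 35 and 28 without C replicate 2 and A replicate 3. Quantile normalization also moved the median log2 fold change of all sequences to 0.02, against −0.08.

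The log2 fold changes that turned sign were all within 1 standard error of 0. With 1 library left out, the log2 fold change ran over −0.048 to 0.16 for oan-miR-15a-5p, −0.10 to 0.36 for gga-miR-16-1-3p (0.51 without C replicate 2 and A replicate 3), −0.50 to 0.40 for oan-miR-15a-3p, −0.47 to 0.57 for gga-miR-15b-3p and −0.54 to 0.22 for gga-miR-15c-3p. For gga-miR-15c-3p it was 0.14 by limma-voom and 0.15 without C replicate 2 and A replicate 3. For oan-miR-15a-3p it was −0.035 by limma on the normalized values, −0.00035 with lines summed per name and −0.36 without C replicate 2 and A replicate 3, where oan-miR-15a-5p had 0.11 and gga-miR-15b-3p 0.53. The difference in 3p share, A minus C, ran over −0.271 to 0.351 percentage points for miR-15a and −0.0490 to 0.0380 for miR-15b. The share of gga-miR-16-5p in the family differed by −1.23 to 0.699 points, or 0.404 without sequences named for other species, and that of gga-miR-15b-5p by −2.54 to 0.514. gga-miR-16-5p stayed below 0 in 17 of 17 settings (−0.23 to −0.07) and gga-miR-15b-5p in 16 of 16 (−0.26 to −0.07). These settings reuse the same libraries. The median over all tested sequences was also below 0 in most of them. It was −0.08 in the main fit, −0.10 without a filter and −0.10 to −0.06 with 1 library left out, but 0.02 by limma-voom.

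Same-numbered libraries deviated from their group means with correlations of 0.0224, 0.474 and −0.0198 over 179 sequences. Libraries with unlike numbers gave −0.484 to 0.423, so the replicate numbers of the labels showed no clear pairing of the testes. With the replicate block 0 sequences and 0 members passed, 60 had an unadjusted p under 0.05, and chi-miR-16b-5p had a log2 fold change of 1.89 (edgeR adjusted p = 0.0904).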

Other observations

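A few relatives of the family known from mammals were found mostly in C replicate 2. mmu-miR-322-3p had 31 counts, all of them there. mmu-miR-322-5p, which carries the seed of miR-16, had 4 counts in A replicate 3, 1 in C replicate 1 and 8 in C replicate 2, and bta-miR-503-5p had a single count in C replicate 2. C replicate 2 held 30 of the 42 miRNAs known from mammalian clusters and A replicate 3 held 9. C replicate 3 held 3, C replicate 1 held 2, A replicate 1 held 1 and A replicate 2 held 0. ccr-miR-457b, named for carp, was the only other sequence with the seed of miR-16 that lay outside the family by name. It had 1 count, in C replicate 3. Apart from its first base and its 3′ end, its sequence was that of gga-miR-16c-5p, whose first base was not called.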
